A study of Sus scrofa with 36 samples.

Results

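Phospholipases A2 are the enzymes that cut the fatty acid from the middle (sn-2) position of a membrane phospholipid, leaving a lysophospholipid and a free fatty acid such as arachidonic or docosahexaenoic acid. The family holds small secreted calcium-dependent enzymes, cytosolic enzymes, calcium-independent enzymes and the hydrolases of platelet-activating factor. In brain they take part in membrane remodelling and supply the precursors of prostaglandins and leukotrienes. The 9 genes described here were given as a list around PLA2G2E, the secreted group IIE enzyme, which was selected on its values in the same piglets and birth weight and diet groups. A row was found in the count tables for 7 of the 9 genes, among 31907 gene identifiers, and 3 of the 7 passed the filter on low counts that 15356 genes passed. PLA2G12A, a secreted group XIIA enzyme, and PLA2G15, the lysosomal phospholipase A2, had no row under the identifiers paired with their symbols and were not analysed here.

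Cerebellar RNA was sequenced from 36 term-born piglets of both sexes in a 2 × 2 design with 9 piglets per group, and each library came from a separate piglet. From 3 days of age the piglets received, for 3 weeks, a formula based on fat from vegetable oils (the VEG diet) or from cow's milk (the MILK diet). Within each diet the piglets were either of normal birth weight (NBW) or intrauterine growth restricted (IUGR), so that a group is named by its diet and birth weight, MILK-IUGR for example. All were crossbred pigs taken from a commercial farm, IUGR was natural low birth weight with an altered head shape rather than an induced restriction, and the litter of each piglet was not in the labels and was not modelled. The cerebellar label was borne out by high counts of granule neuron genes such as CBLN1 (median count 22438) and of Purkinje cell genes such as CALB1 (median count 9108). Because the samples were pieces of whole tissue, fewer cells of a type and less RNA per cell cannot be told apart.

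The count tables held between 15516541 and 23027502 counts on genes in 33 of the libraries, with 26.7 to 30.5% of reads not assigned to a gene. The other 3 libraries, piglets 202 (VEG-NBW), 210 (VEG-IUGR) and 213 (MILK-NBW), stood apart in their groups with 31.5 to 64.3% of reads not assigned, and all 7 measured genes of the list were at 0 counts in piglet 210. The main values below rest on the 33 libraries, and the values over all 36 are given where they bear on a result. A normalised read count is the count divided by the size factor of its library, and it compares piglets for 1 gene but not genes with each other, since transcript lengths were not used here.

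PLA2G2E was counted at a handful of reads per piglet. In the pig genome (build Sscrofa11.1) RefSeq places it on chromosome 6 at 78278080 to 78282253, and no other RefSeq gene overlaps it. Its Ensembl identifier is ENSSSCG00000033887. The raw counts were highest in MILK-NBW, with 24, 6 and 10 in the 3 females and 14, 3, 9, 3 and 12 in the 5 males. In MILK-IUGR they were 3, 4, 1, 0 and 4 in the 5 females and 1, 0, 0 and 0 in the 4 males. No MILK-IUGR piglet reached 5 counts, whereas 6 of 8 MILK-NBW piglets did. In VEG-IUGR the counts were 12, 6, 3 and 5 in the 4 females and 7, 2, 6 and 11 in the 4 males. In VEG-NBW they were 6, 16, 4 and 2 in the 4 females and 0, 0, 2 and 2 in the 4 males. The birth weight difference thus had opposite signs under the 2 diets, lower in IUGR than in NBW under MILK and higher under VEG. Under VEG the difference was in the males, with 4 counts in NBW and 26 in IUGR, while the females had 28 and 26. Of the 28 counts in VEG-NBW females, 16 came from piglet 222, so the likeness of the females rests on that piglet.

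Summed over a group, the piglets gave 32 counts in VEG-NBW (95% exact Poisson interval 21.9 to 45.2), 52 in VEG-IUGR (38.8 to 68.2), 81 in MILK-NBW (64.3 to 100.7) and 13 in MILK-IUGR (6.92 to 22.2). These intervals cover counting error only. As normalised read counts (mean ± SD), MILK-NBW had 10.3 ± 7.12 (n = 8), VEG-IUGR had 6.20 ± 3.17 (n = 8), VEG-NBW had 3.72 ± 4.49 (n = 8) and MILK-IUGR had 1.48 ± 1.84 (n = 9). Each step in this order was smaller than the larger SD of the pair, and each pair of neighbours had overlapping values. MILK-IUGR and MILK-NBW, at the ends of the order, also overlapped, between 3.09 and 4.40 normalised counts. The MILK-IUGR piglet was the lower one in 68 of the 72 pairs that can be formed from these groups. The mean of MILK-IUGR was 0.143 times that of MILK-NBW, and 0.161 times with all 36 libraries, where piglet 213 added a MILK-NBW value of 1 count. Since PLA2G2E was chosen by this difference, these numbers are a description and no test is given.

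**Figure D1:**
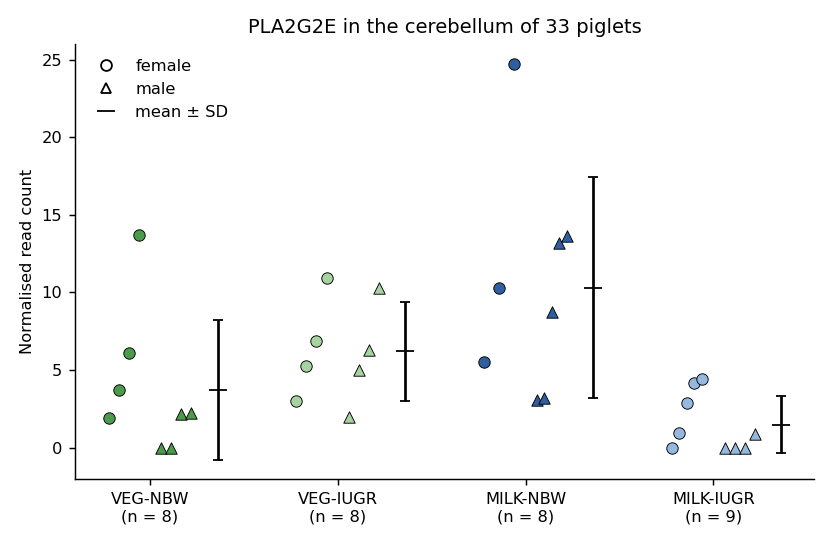
Normalised read count of PLA2G2E (vertical axis) in each of 33 piglets by group (horizontal axis), circles for females and triangles for males, with the group mean and SD as a bar to the right of the points. The MILK-IUGR piglets sit between 0 and 4.40, the MILK-NBW piglets between 3.09 and 24.7, and the groups overlap.

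PLA2G2E was not chosen for a difference between the sexes. The females had 6.53 ± 6.10 normalised counts (SD, n = 16) and the males 4.16 ± 4.66 (SD, n = 17). The female mean was the higher one in each of the 4 groups, at 6.35 against 1.10 in VEG-NBW, 6.51 against 5.89 in VEG-IUGR, 13.5 against 8.38 in MILK-NBW and 2.48 against 0.218 in MILK-IUGR. The values of the sexes overlapped in all 4 groups. In edgeR's fit without the filter on low counts, males against females gave a log2 fold change of -1.09 (SE 0.40), with an unadjusted p of 0.00995 and an adjusted p of 0.922. The difference did not pass the correction over 25708 genes, of which 4.47% had an unadjusted p under 0.05 for sex. With all 36 libraries the log2 fold change was -1.08 (SE 0.45) and the edgeR adjusted p 0.991.

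Libraries and marker genes of other cell types were compared between the groups as well. The share of reads not assigned ranged from 26.7 to 29.1% in MILK-NBW and from 27.4 to 29.7% in MILK-IUGR, and the total counts on genes from 16631087 to 19761505 and from 15698493 to 23027502. Choroid plexus markers were set beside PLA2G2E. In MILK-IUGR against MILK-NBW, 4 of the 5 measured choroid plexus markers had an unadjusted p under 0.05, beside 6.24% of all genes, and none an adjusted p under 0.05, with a median log2 fold change of 2.66. In MILK-NBW against VEG-NBW it was 3 of 5, beside 6.67% of all genes, with a median of -2.24 and none past the correction. Their summed level ranged from 36.7 to 1683 CPM (the count scaled to a fixed library total) in MILK-IUGR and from 16.9 to 117 CPM in MILK-NBW, from 22.5 to 262 CPM in VEG-NBW and from 73.7 to 358 CPM in VEG-IUGR. The highest sum in MILK-IUGR was that of piglet 231, which had 0 counts of PLA2G2E. With it the mean was 271 ± 531 CPM (SD, n = 9) and without it 95.0 ± 39.6 CPM (n = 8), beside 76.3 ± 38.1 CPM (n = 8) in MILK-NBW. OTX2, the choroid plexus marker with the highest median, had a median of 1302 counts, and TTR ranged from 23 to 25022 counts. At the medians the sum was largely OTX2, with 70.9 CPM against 16.6 for TTR, 5.42 for KCNJ13, 0.454 for CLIC6 and 0.318 for AQP1. Whether OTX2 came from choroid plexus alone was not tested, which limits the sum as a measure of that tissue. In MILK-IUGR against MILK-NBW, no marker of the other lists that passed the filter on low counts had an unadjusted p under 0.05 in edgeR. These lists covered granule neurons, Purkinje cells, astrocytes, oligodendrocytes, microglia, meningeal fibroblasts, endothelium, mural cells, red blood cells and blood leukocytes. Across the 33 piglets the Spearman correlation of PLA2G2E with the summed markers ran from -0.07 for choroid plexus to 0.37 for the lymphocyte and neutrophil list. Both values of a piglet came from the same library and so share its depth. The leukocyte list was itself at the limit of detection, with median counts of 0 for MS4A1 and 1 for CD3E. The part of these cells in the PLA2G2E values was not tested.

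PLA2G2E lies in a cluster of secreted phospholipase A2 genes. Measured from its end, PLA2G2A begins 45.5 kb away, PLA2G5 83.4 kb, PLA2G2D 108.8 kb and PLA2G2F 131.2 kb, and PLA2G2C was not measured. PLA2G2A, the classical secreted enzyme of inflammation, had 0 counts in all 33 piglets. PLA2G2F had between 0 and 5 counts per piglet. No measured gene of the cluster exceeded 24 counts in any of these piglets. On the other side, OTUD3, a deubiquitinase gene, ends 4.54 kb before PLA2G2E and was measured at 1453 normalised counts in MILK-NBW and 1512 in MILK-IUGR. Its log2 CPM had a Spearman correlation of -0.33 with that of PLA2G2E over the 33 piglets. MUL1, a mitochondrial ubiquitin ligase 465 kb away, had a correlation of 0.63.

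**Figure D2:**
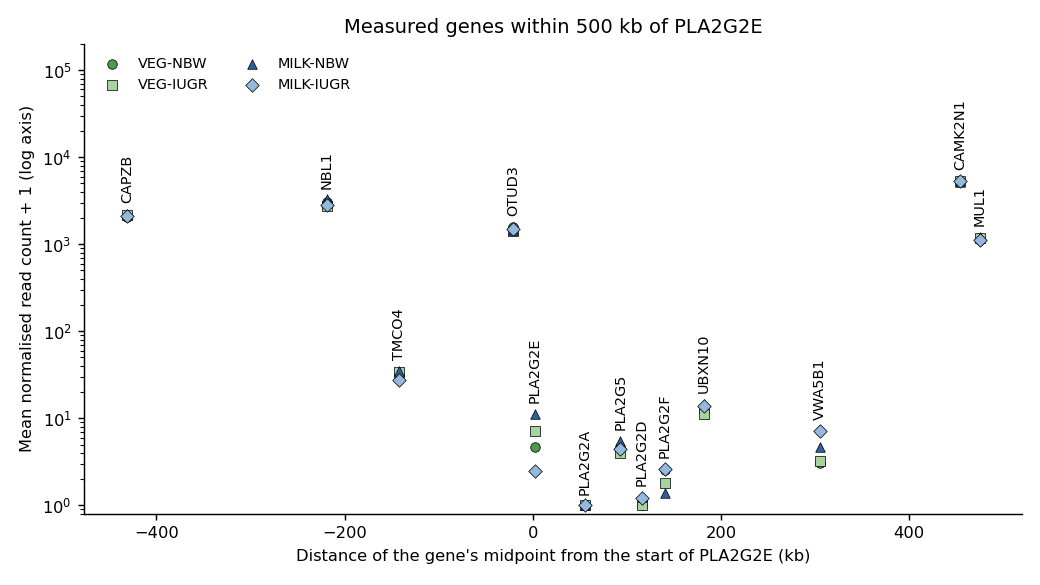
Mean normalised read count plus 1 (vertical log axis) of each measured protein-coding gene within 500 kb of PLA2G2E against the distance of its midpoint from the start of PLA2G2E (horizontal axis, kb), with 1 symbol per group. The 4 symbols of PLA2G2E are spread between means of 1.48 and 10.3, while those of OTUD3 beside it lie close together, at 1453 and 1512 in the MILK groups. Heights compare groups within a gene, not genes.

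PLA2G5, the secreted group V enzyme of macrophages and heart, is on chromosome 6 at 78365697 to 78376383. It had 0 to 10 counts in VEG-NBW (median 3.5), 1 to 10 in VEG-IUGR (median 2), 1 to 12 in MILK-NBW (median 2.5) and 1 to 8 in MILK-IUGR (median 3). The normalised levels were 3.70 ± 3.20, 2.97 ± 2.56, 4.48 ± 3.95 and 3.41 ± 2.36 in the same order (SD, n = 8, 8, 8 and 9), and all 4 groups overlapped. Its MILK-IUGR piglet was the lower one in 37 of 72 pairs with MILK-NBW and the higher one in 35.

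PLA2G3, the secreted group III enzyme related to that of bee venom, is on chromosome 14 at 47923005 to 47928762. Its counts ran from 0 to 5 in VEG-NBW, 1 to 8 in VEG-IUGR, 0 to 7 in MILK-NBW and 0 to 7 in MILK-IUGR. The normalised levels were 2.63 ± 1.90, 3.41 ± 2.43, 3.01 ± 2.75 and 2.83 ± 2.42 (SD, n = 8, 8, 8 and 9), and all 4 groups overlapped. PLA2G2D, a secreted enzyme known from lymphoid tissue, is on chromosome 6 at 78391063 to 78397394. It was at 0 in 31 of the 33 piglets and had 2 counts each in piglet 220 of MILK-NBW and piglet 232 of MILK-IUGR. No group sum of PLA2G2D exceeded the limit of 3 counts that a count of 0 allows, so no fold is given for it.

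Neither PLA2G5 nor PLA2G3 had an unadjusted p under 0.05 in any of the 8 comparisons of edgeR's fit without the filter, in which their smallest p was 0.199 for PLA2G3 by sex. PLA2G2D had an unadjusted p of 0.0245 for diet in that fit (edgeR adjusted p = 0.843), which rests on 4 counts in 2 piglets. Over all genes of that fit, 5.54% had such a p for diet, 4.08% for birth weight, 6.31% for the interaction and 6.23% for diet in NBW. The shares were 4.84% for diet in IUGR, 3.75% for birth weight in VEG, 6.1% for birth weight in MILK and 4.47% for sex. The SE of the log2 fold changes of PLA2G5 and PLA2G3 was 0.40 to 0.89, which limits the size of a difference that could be detected.

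The share of the spread that was counting error was estimated for each gene. Within groups the normalised count of PLA2G2E had a coefficient of variation of 85.2%, and Poisson counting accounted for 25.9% of the variance. For PLA2G5 the values were 84.2% and 38.7%, and for PLA2G3 80.8% and 51.6%. The within-group variance of PLA2G2E was 3.86 times that of counting alone, against 2.58 times for PLA2G5 and 1.94 times for PLA2G3. PLA2G6, PLA2G4A and PLA2G7 varied less between piglets, with coefficients of variation of 10.5%, 20.5% and 32.7%, of which counting made up 15.0%, 21.5% and 4.95% of the variance.

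PLA2G6, the calcium-independent enzyme whose loss causes infantile neuroaxonal dystrophy, is on chromosome 5 at 9713809 to 9777921. The normalised counts ran from 554 to 740 in VEG-NBW (median 598), 554 to 635 in VEG-IUGR (median 589), 534 to 721 in MILK-NBW (median 616) and 425 to 651 in MILK-IUGR (median 567). The means were 620 ± 65.7, 593 ± 29.6, 628 ± 61.0 and 570 ± 81.7 (SD, n = 8, 8, 8 and 9). All 4 groups overlapped, and the lowest piglets were in MILK-IUGR. Over the 8 comparisons its log2 fold change lay between -0.15 and 0.03 (SE 0.05 to 0.11). The smallest unadjusted p was 0.0549, for birth weight, and the smallest edgeR adjusted p over the comparisons 0.771.

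PLA2G4A, the cytosolic enzyme that prefers arachidonic acid and moves to membranes when calcium rises, is on chromosome 9 at 127853581 to 128164825. Its RefSeq span overlaps that of PTGS2, the inducible cyclooxygenase, and with the strand setting of the counting not given the reads of the shared stretch cannot be assigned with certainty. The normalised counts ran from 84.1 to 162 in VEG-NBW (median 110), 81.2 to 114 in VEG-IUGR (median 94.3), 71.1 to 147 in MILK-NBW (median 118) and 91.1 to 158 in MILK-IUGR (median 112). The means were 116 ± 27.1, 96.6 ± 12, 113 ± 25.6 and 117 ± 22.7 (SD, n = 8, 8, 8 and 9), lowest in VEG-IUGR, with all 4 groups overlapping. Its log2 fold changes lay between -0.26 and 0.33 (SE 0.10 to 0.20). The smallest unadjusted p was 0.0560, for diet in IUGR, and the smallest edgeR adjusted p 0.796.

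PLA2G7, the secreted hydrolase of platelet-activating factor and oxidised phospholipids, is on chromosome 7 at 41488152 to 41531383, where its span overlaps a long non-coding RNA. The normalised counts ran from 61.9 to 216 in VEG-NBW (median 183), 120 to 339 in VEG-IUGR (median 232), 79.9 to 300.2 in MILK-NBW (median 144) and 110 to 265 in MILK-IUGR (median 201). The means were 165 ± 47.7, 232 ± 62.2, 174 ± 79.8 and 186 ± 53.6 (SD, n = 8, 8, 8 and 9). The VEG-IUGR piglet was the higher one in 54 of the 64 pairs with VEG-NBW, and the groups overlapped. The log2 fold change of IUGR against NBW in VEG was 0.49 (SE 0.24, unadjusted p = 0.0467, edgeR adjusted p = 0.9996), and it was 0.34 with all 36 libraries. In MILK the same contrast gave 0.10 (SE 0.23), and the interaction, which tests the difference between the diets, -0.40 (SE 0.33, unadjusted p = 0.243, edgeR adjusted p = 0.826).

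Markers of cell types were set beside the PLA2G7 values. Over the 33 piglets the Spearman correlation of its log2 CPM was 0.54 with the summed microglial markers, 0.39 with the oligodendrocyte markers and 0.37 with the astrocyte and Bergmann glia markers. It was -0.43 with the Purkinje cell markers and -0.38 with the granule neuron markers. With the remaining lists it lay between -0.23 (mural cells) and 0.13 (lymphocytes and neutrophils). In VEG-IUGR against VEG-NBW the 5 measured oligodendrocyte markers had log2 fold changes of 0.22 to 0.34 and the 6 microglial markers of -0.18 to 0.00, with no marker of either list at an unadjusted p under 0.05. The summed oligodendrocyte level ran from 8402 to 30695 CPM in VEG-NBW and from 9412 to 47586 CPM in VEG-IUGR, and the microglial one from 102 to 235 and from 112 to 186 CPM. The part of these cells in the PLA2G7 values was not tested.

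**Figure D3:**
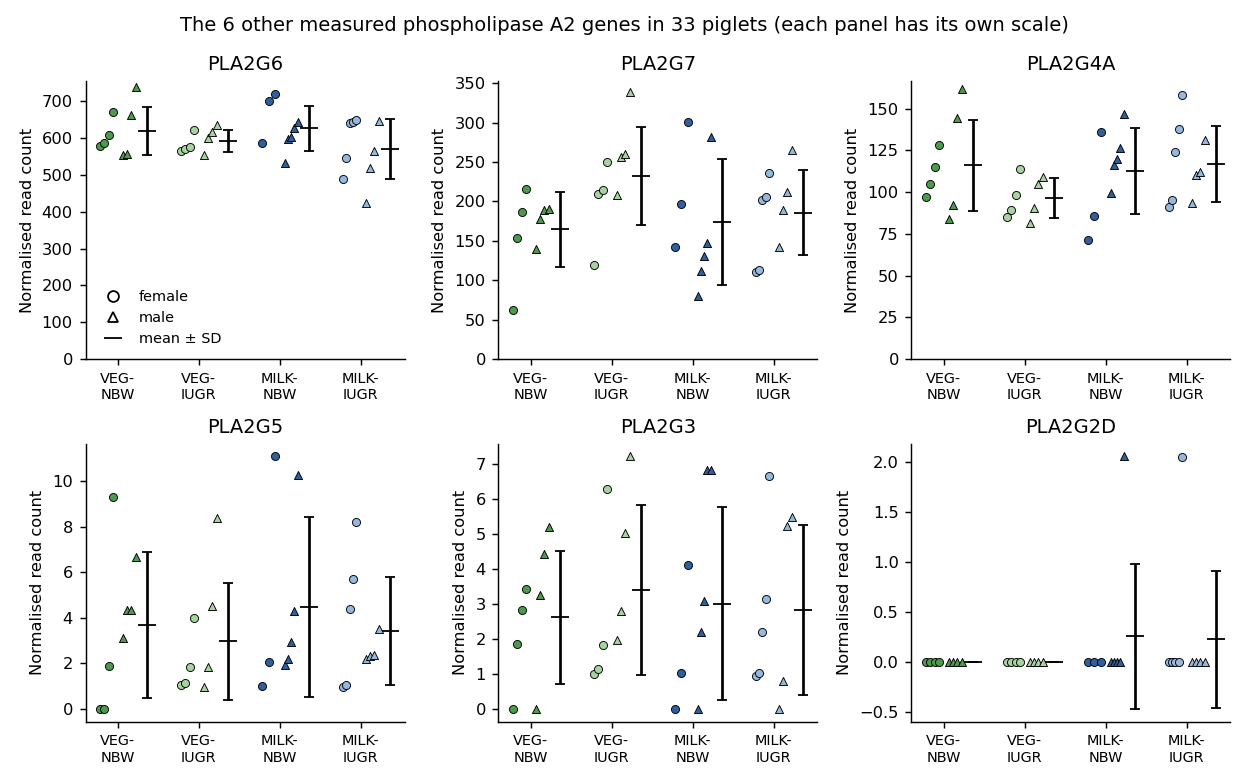
Normalised read count (vertical axes, each panel with its own scale) of the 6 other measured genes in 33 piglets by group (horizontal axes), circles for females and triangles for males, bars for mean and SD. The 4 groups overlap for every gene, and PLA2G2D shows 2 piglets above 0.

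Among PLA2G4A, PLA2G6 and PLA2G7, edgeR called 0 of 3 genes at an adjusted p under 0.05 in each of the 8 comparisons, and so did DESeq2 and limma voom. The share of all genes called was 0% in 7 comparisons and 0.163% for sex (25 genes). At an unadjusted p under 0.05 the count in the edgeR fit was 1 of 3, PLA2G7, for birth weight in VEG, where 2.29% of all genes had such a p. It was 0 of 3 in the other 7 comparisons of that fit. The shares of all genes in edgeR were 4.26% for diet, 2.19% for birth weight, 6.09% for the interaction and 6.67% for diet in NBW. They were 3.9% for diet in IUGR, 6.24% for birth weight in MILK and 2.94% for sex. In DESeq2, PLA2G4A also had such a p for diet in IUGR, with a log2 fold change of 0.28 (SE 0.14, unadjusted p = 0.0487, DESeq2 adjusted p = 0.9994). In that fit 4.19% of all genes had an unadjusted p under 0.05 for diet in IUGR. The contrasts between groups share piglets with each other, so their values are not separate pieces of evidence.

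**Figure D4:**
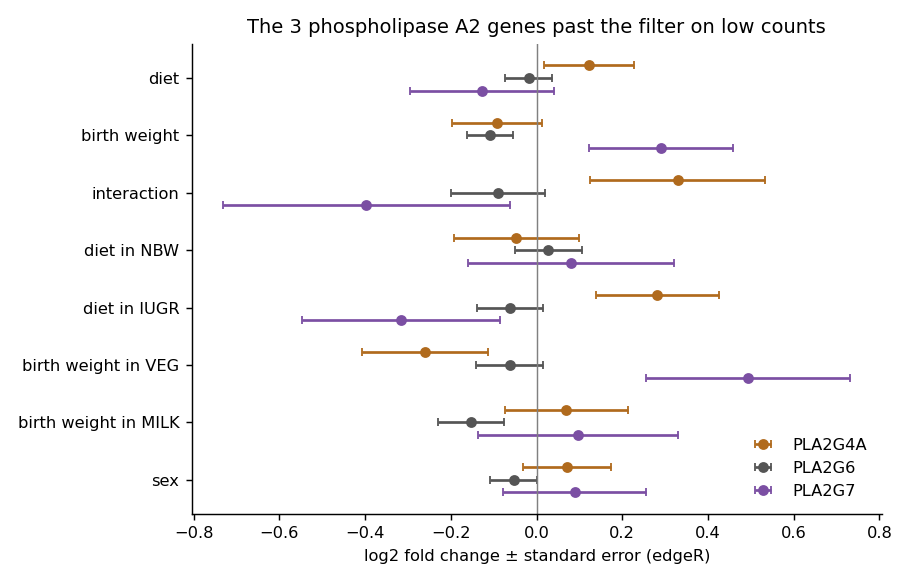
Log2 fold change with its SE (horizontal axis) of PLA2G4A, PLA2G6 and PLA2G7 in 8 comparisons (vertical axis), with positive values higher in MILK than VEG, in IUGR than NBW or in males than females. PLA2G7 has the widest range, from -0.40 for the interaction to 0.49 for birth weight in VEG, and PLA2G6 stays between -0.15 and 0.03.

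The genes whose log2 CPM ranked the 33 piglets most like PLA2G2E were BORCS6, a subunit of a complex that positions lysosomes (Spearman rho 0.68), NOP53, a ribosome biogenesis factor (0.64), VPS4A, the ATPase of membrane scission (0.64), RPL3L, a ribosomal protein paralogue (0.63), and MUL1 (0.63). Over the 15356 genes the correlations ran from -0.65 to 0.68. With all 36 libraries the values for the 5 genes were 0.54, 0.40, 0.56, 0.38 and 0.52, and they ranked 62, 545, 43, 708 and 92. BORCS6 had 361 ± 16.6 normalised counts (SD, n = 8) in MILK-NBW, 326 ± 46.3 (n = 8) in VEG-IUGR, 319 ± 35.8 in VEG-NBW (n = 8) and 308 ± 23.7 in MILK-IUGR (n = 9), the same order of groups as PLA2G2E over a far smaller range. BORCS6 was picked for its likeness to PLA2G2E in the same piglets, so the shared order of groups is a description only. Within the family the correlation of PLA2G2E was 0.33 with PLA2G6, 0.18 with PLA2G3, -0.07 with PLA2G7, -0.08 with PLA2G4A and -0.34 with PLA2G5.

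Genes upstream and downstream of the family were read from 6 lists, which hold other phospholipase A2 enzymes, receptors and binding proteins, reacylation of lysophospholipids, their breakdown, prostanoid genes and lipoxygenase genes. Of 112 listed genes, 100 had a row and 82 passed the filter. None of the 82 passed an adjusted p under 0.05 in any comparison in edgeR, DESeq2 or limma voom. At an unadjusted p under 0.05 there were 10 of 82 (12.2%) for diet in IUGR, beside 3.9% of all genes, 4 higher and 6 lower in MILK. They comprised 4 of 18 prostanoid genes, 3 of 19 reacylation genes, 2 of 10 lipoxygenase genes, 1 of 16 other phospholipase A2 genes and 0 of the 10 receptors and 9 breakdown genes. The median log2 fold change of the 82 in that comparison was 0.02, against 0.00 over all genes. The count was 5 of 82 (6.10%, beside 4.26% of all genes) for diet, 4 (4.88%, beside 2.19%) for birth weight and 8 (9.76%, beside 6.09%) for the interaction. It was 2 (2.44%, beside 6.67%) for diet in NBW and 3 (3.66%, beside 2.29%) for birth weight in VEG. It was 7 (8.54%, beside 6.24%) for birth weight in MILK and 4 (4.88%, beside 2.94%) for sex. The lists were chosen with earlier results of these data known, so these shares are a description and no test.

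**Figure D5:**
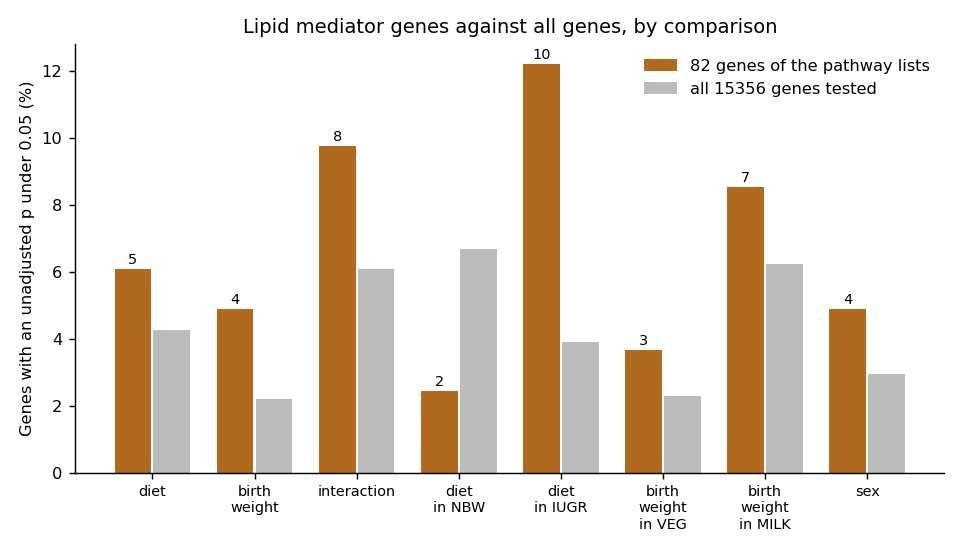
Share of genes with an unadjusted p under 0.05 (vertical axis, %) in 8 comparisons (horizontal axis), for the 82 genes of the 6 pathway lists (brown, with their number above the bar) and for all 15356 genes tested (grey). The widest gap is at diet in IUGR, 12.2 against 3.9%, and at diet in NBW the pathway share is the lower one. The shares are a description, since the lists were chosen with earlier results of these data known.

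PNPLA2, the lipase of lipid droplets, had 743 ± 89.4 normalised counts in MILK-IUGR (SD, n = 9), below 860 ± 46.9 in MILK-NBW, 867 ± 84.3 in VEG-IUGR and 838 ± 62.4 in VEG-NBW (n = 8 each). Its values ran from 561 to 852 in MILK-IUGR and from 779 to 919 in MILK-NBW, so the groups overlapped. The log2 fold change was -0.21 (SE 0.07) for birth weight in MILK, -0.22 (SE 0.07) for diet in IUGR and -0.26 (SE 0.10) for the interaction, with edgeR adjusted p of 0.771, 0.996 and 0.784. With all 36 libraries the values were -0.22, -0.43 and -0.53, with edgeR adjusted p of 1, 0.346 and 0.809. The library that the set of 36 adds to VEG-IUGR is piglet 210, with 64.3% of reads not assigned to a gene. ACSL6, which activates docosahexaenoic acid in brain, ran from 2097 to 2508 normalised counts in MILK-NBW and from 2452 to 2847 in MILK-IUGR, a log2 difference of 0.13 (SE 0.05, edgeR adjusted p = 0.771).

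Of the prostaglandin genes, PTGS2 had 4 to 68 counts in MILK-IUGR and 3 to 12 in VEG-IUGR, a log2 fold change of 1.31 (SE 0.39, edgeR adjusted p = 0.996). The overlap of its span with PLA2G4A, a gene of higher counts, limits these PTGS2 values as well. The 68 counts were those of piglet 225, and the next piglet of its group had 21. Without that piglet the MILK-IUGR mean was 12.6 ± 5.99 normalised counts in place of 17.8 ± 16.6, above 7.11 ± 3.09 in VEG-IUGR. The NBW groups had 12.1 ± 3.70 in VEG and 12.6 ± 5.72 in MILK (SD, n = 8 each). Without piglet 225, MILK-IUGR was thus at the level of both NBW groups, and VEG-IUGR was the low group. PTGER1, a prostaglandin E2 receptor, had 1 to 9 counts in MILK-IUGR and 4 to 16 in VEG-IUGR (log2 -1.10, SE 0.38, edgeR adjusted p = 0.996). PTGER3, another such receptor, had 6 to 17 counts in MILK-IUGR and 0 to 11 in MILK-NBW (log2 1.13, SE 0.40, edgeR adjusted p = 0.771). For birth weight over both diets its log2 fold change was 0.76 (SE 0.28, edgeR adjusted p = 0.9996). CYSLTR1, a receptor of cysteinyl leukotrienes, had 5 to 11 counts in VEG-IUGR and 9 to 22 in VEG-NBW (log2 -0.92, SE 0.31, edgeR adjusted p = 0.9996). The counts of the groups overlapped in each of these pairs, and none of the differences passed the correction.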

How the data were processed

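The authors deposited 1 table per piglet of unnormalised HTSeq counts on Ensembl gene identifiers. Per the labels, RNA was sequenced as paired-end 150-bp reads and processed with Trim Galore, HISAT2, HTSeq and DESeq2 on Sscrofa11.1. Tool versions, the annotation release and strandedness are not given in the sources used here. The study excluded 3 libraries for low RNA integrity, unnamed in its text. Here the library whose share of unassigned reads stood apart by Dixon's rule (above 0.493) was left out of its group.

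The fits used R 4.3.3. The main one was edgeR 4.0.16 on the counts (TMM, filterByExpr with a minimum count of 10, quasi-likelihood F test, sex as covariate) and Benjamini-Hochberg adjustment, called under 0.05. The SE of an edgeR log2 fold change was derived from the test, as its absolute value divided by the square root of F. DESeq2 1.42.0 gave size factors and, with limma 3.58.1 voom, alternative tests. Log2 CPM used a prior count of 2. The interaction and group contrasts came from 1 model of the 4 group means. The main edgeR fit was also run on simulated data holding 200 changed genes, for diet and for the interaction only. The alternative fits and the other comparisons were not run on simulated data. Of 31907 identifiers, 15029 matched a symbol. RefSeq gave coordinates.

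All members were named, with fold changes where the unadjusted p was under 0.05, pathway genes where it was under 0.01, and the 5 genes most like PLA2G2E by Spearman correlation. Pathway genes were not named by level per length because transcript lengths were not used here. The members and lists were chosen with earlier results of these data known.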

Additional observations from a re-analysis of the deposited data

Results flagged for a closer look

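Normalised counts of the 7 measured genes were screened within each of the 4 groups for a piglet far from the rest, and 3 of 28 groups held one. The rule passes about 1 in 20 groups by chance for normally distributed values. That rate need not hold for low counts such as those of PLA2G2E. It does not apply to PLA2G2D, where any single piglet above 0 is flagged. In VEG-NBW, piglet 222 had 13.7 normalised counts of PLA2G2E (16 reads) and the other 7 piglets 0 to 6.09. Without it the group mean was 2.30 ± 2.13 (SD, n = 7) in place of 3.72 ± 4.49. PLA2G2D stood out in piglet 220 of MILK-NBW at 2.06 and in piglet 232 of MILK-IUGR at 2.05 normalised counts, 2 reads each, with every other piglet of both groups at 0.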

How the results depend on the processing

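Every one of the 291 alternative values kept its direction and its side of the threshold. They covered the counts of called members and pathway genes in 8 comparisons, 11 log2 fold changes and the PLA2G2E ratio. The alternatives were all 36 libraries, size factors in edgeR, DESeq2, no sex term, no filter, at least 10 counts in every library, limma voom with quality weights, an adjusted p under 0.1 and, chosen after seeing the data, DESeq2, voom or no filter with all 36 libraries. With all 36 libraries the PNPLA2 differences for diet in IUGR and for the interaction moved from -0.22 to -0.43 and from -0.26 to -0.53. The library that this set adds to VEG-IUGR is piglet 210, with 64.3% of reads not assigned and 6513 genes with a count. In limma voom with quality weights over all 36 libraries the differences were -0.20 and -0.27. The cause of the move was not tested. Since nothing was called, the counts say little about stability. The PLA2G2E mean of MILK-IUGR over MILK-NBW was 0.143 and ran from 0.108 to 0.179 when 1 piglet was left out. It was 0.184 in females and 0.0261 in males, where MILK-IUGR held 1 count against 41. These ratios describe the difference by which PLA2G2E was chosen and are no test of it. Depth limits PLA2G2E, PLA2G5, PLA2G3 and PLA2G2D, all below the filter. No paired analysis was possible because piglets carry no number that joins the groups.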

Other observations

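Red blood cell markers were lower in MILK-IUGR than in VEG-IUGR for 3 of 4 measured genes at an unadjusted p under 0.05 in edgeR, beside 3.9% of all genes, with a median log2 fold change of -1.27, and 0 of 4 passed the correction. Their summed level ran from 1.97 to 10.1 CPM in MILK-IUGR and from 2.90 to 70.9 CPM in VEG-IUGR. The 70.9 CPM were those of piglet 211. Without it the VEG-IUGR mean was 8.62 ± 5.05 CPM (SD, n = 7) in place of 16.4 ± 22.5 (n = 8), beside 6.12 ± 2.61 (n = 9) in MILK-IUGR. Of the 6 mural cell markers, 4 had an unadjusted p under 0.05 for diet in edgeR, beside 4.26% of all genes, and 0 of 6 passed the correction. The median log2 fold change was 0.53, with a range from -0.04 to 0.62. Their summed level was 182 ± 24.7 CPM in VEG-NBW and 178 ± 24.2 CPM in VEG-IUGR (SD, n = 8 each). It was 205 ± 28.6 CPM in MILK-NBW (n = 8) and 209 ± 40.5 CPM in MILK-IUGR (n = 9), and all 4 groups overlapped.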
